A study of Mus musculus with 24 samples.

Results

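Interferon-stimulated genes are switched on when a cell receives an interferon signal, and they were followed here as 41 named genes in mouse quadriceps. They were taken by name from the count tables. All 41 were found among the 24062 gene rows of both tables, and all 41 passed the filter on low counts in every fit. By role they are 3 transcription factors (Irf7, Irf9, Stat2), 7 genes of ISG15, ubiquitin and ADP-ribose modification (Isg15, Usp18, Herc6, Dtx3l, Parp9, Parp14, Trim30a), 14 antiviral effectors (Mx1, Mx2, Oas1a, Oas2, Oas3, Oasl1, Oasl2, Ifit1, Ifit2, Ifit3, Rsad2, Cmpk2, Eif2ak2, Bst2), 5 nucleic acid sensors (Ddx58, Ifih1, Dhx58, Ddx60, Zbp1), 7 GTPases (Gbp2, Gbp3, Gbp4, Tgtp1, Igtp, Irgm1, Iigp1) and 5 others (Rtp4, Xaf1, Ifi35, Ifi44, Ifi27l2a). The study sequenced polyadenylated RNA from quadriceps of C57BL/6 mice in 24 libraries and 9 groups. WT mice were compared with delEx44 mice, which lack exon 44 of Dmd, the dystrophin gene, and are a model of Duchenne muscular dystrophy, and with corrected mice. Corrected mice were delEx44 mice that were injected intraperitoneally on postnatal day 4 with AAV9 carrying SpCas9 and, in separate particles, AAV9 carrying the guide RNA, so they too carry the deletion. Each genotype had 3 libraries from sedentary mice at 4 weeks, 2 at 8 weeks after 1 month of downhill running (a 15 degree decline at 12 m/min, every other day) and 3 from sedentary mice at 18 months.

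The corrected mice at 4 weeks and after running had received 8e13 vg/kg of each vector, with the guide RNA in a self-complementary genome. Those at 18 months had received 2.5e14 vg/kg of a single-stranded guide RNA vector and 5e13 vg/kg of the Cas9 vector. Age, dose and vector type therefore cannot be told apart between the corrected groups. All libraries at 18 months were deposited in a separate count table, so that age and the table cannot be told apart in any genotype. The labels name no group that received a vector without Cas9 or without the guide, so vector and editing cannot be told apart either. Running came with the step from 4 to 8 weeks of age in every genotype, and the labels name no sedentary group at 8 weeks.

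As background, type I interferons act through the receptor chains Ifnar1 and Ifnar2, the kinases Jak1 and Tyk2, and a complex that includes Stat2 and Irf9 and binds the interferon-stimulated response element in promoters. Interferon gamma acts through the receptor chains Ifngr1 and Ifngr2 and the gamma-activated site in promoters, and it is a strong inducer of the guanylate-binding proteins and the immunity-related GTPases. Many of the products block viral replication, sense foreign nucleic acid or feed back on the pathway. In dystrophic muscle, repeated fibre damage brings in immune cells that can both make and answer interferons.

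Promoter sequences were held for 29 of the 41 genes in RefSeq (GRCm38.p6, 250 bases before to 50 after the start). The core of the interferon-stimulated response element, GAAA, any 2 bases and GAAA again, was searched on both strands. It was found in 18 of the 29 members, or 62.1%, against 3.99% of 27025 genes with a promoter of the same length. The letters TTCNNNGAA, the form of the gamma-activated site, were found in 7 of the 29, or 24.1%, against 9.55% of all genes. All 5 GTPases with a promoter held the response element core, as did 3 of 3 nucleic acid sensors, 7 of 11 antiviral effectors, 2 of 4 genes of the ISG15, ubiquitin and ADP-ribose group, 1 of 3 transcription factors and 0 of 3 remaining genes. A match describes letters and not a bound site. The 4 promoters below are shown because Isg15 and Ifit3 stand for the antiviral response and Gbp2 and Tgtp1 for the GTPases. Matches to the response element core on either strand are in capitals.
Isg15, chr4:156200769-156201068, minus strand: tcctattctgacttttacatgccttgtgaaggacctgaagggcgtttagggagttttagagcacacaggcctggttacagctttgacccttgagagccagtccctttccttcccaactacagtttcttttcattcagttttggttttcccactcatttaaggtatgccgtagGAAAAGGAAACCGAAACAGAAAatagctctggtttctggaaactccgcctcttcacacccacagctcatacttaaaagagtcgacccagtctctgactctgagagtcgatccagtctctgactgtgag
Ifit3, chr19:34583279-34583578, plus strand: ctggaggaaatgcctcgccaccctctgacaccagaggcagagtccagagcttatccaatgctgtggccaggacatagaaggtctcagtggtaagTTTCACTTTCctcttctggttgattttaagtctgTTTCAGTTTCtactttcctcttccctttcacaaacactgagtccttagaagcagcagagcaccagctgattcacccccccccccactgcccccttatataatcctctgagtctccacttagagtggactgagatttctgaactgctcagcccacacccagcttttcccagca
Gbp2, chr3:142620413-142620712, plus strand: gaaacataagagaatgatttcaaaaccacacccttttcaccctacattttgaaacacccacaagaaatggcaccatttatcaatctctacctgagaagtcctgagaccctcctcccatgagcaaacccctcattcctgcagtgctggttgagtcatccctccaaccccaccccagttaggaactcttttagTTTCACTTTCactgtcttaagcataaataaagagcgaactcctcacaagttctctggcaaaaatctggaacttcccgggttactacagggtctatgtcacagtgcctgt
Tgtp1, chr11:48992197-48992496, minus strand: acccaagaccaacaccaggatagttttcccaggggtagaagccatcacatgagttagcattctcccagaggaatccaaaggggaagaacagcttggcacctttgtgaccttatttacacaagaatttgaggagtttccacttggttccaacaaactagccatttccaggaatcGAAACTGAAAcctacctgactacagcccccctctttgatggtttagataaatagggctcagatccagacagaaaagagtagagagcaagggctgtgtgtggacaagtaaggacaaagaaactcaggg
Isg15 held 3 overlapping matches, which began at −78, −72 and −66 from the start. Ifit3 held 2, at −156 and −122, both read on the opposite strand. Gbp2 held 1 on the opposite strand at −59. Tgtp1 held 1 at −77 and, just before it at −88, a match to TTCNNNGAA. Some members could not be measured on their own from short reads. Of all 50-base stretches of the Tgtp1 transcripts, 91.4% also occurred in another gene, chiefly Tgtp2. The share was 57.6% for Oas1a (with Oas1g) and 51.2% for Ifit3 (with Ifit3b), so the counts of these 3 are uncertain.

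Library depth, as counts in genes, was about 30552900 to 38090500 at 4 weeks and after running and 23125900 to 31254200 at 18 months. Levels are given as CPM, the usual normalised read count, a gene's counts scaled to a fixed library total with TMM factors, in the order of replicate 1, 2 and 3. After running the corrected libraries are replicates 1 and 3, and at 18 months the first 2 WT values come from libraries without a replicate number. Dmd, the targeted gene, counted over its whole length, was at 36.1 to 86.7 CPM in the 8 delEx44 libraries, at 88.8 to 304.0 in the 8 corrected ones and at 148.2 to 425.2 in WT. The 10 fibre markers had a mean log2 CPM of 12.4 to 14.0 in all 24 libraries, which fits the labelled tissue. WT replicate 3 at 4 weeks stood apart in neutrophil markers (summed level 218 CPM, against 0.378 and 0.758 in the other WT libraries). All 6 run libraries were also high in them (mean log2 CPM 3.13 to 4.68). Nothing in the labels says that the libraries of a group come from separate animals, so the p-values rest on the spread between libraries. Each fit estimates that spread over all its groups, also those outside the comparison. In whole muscle, fewer cells of a type and less RNA per cell cannot be told apart.

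**Figure D1:**
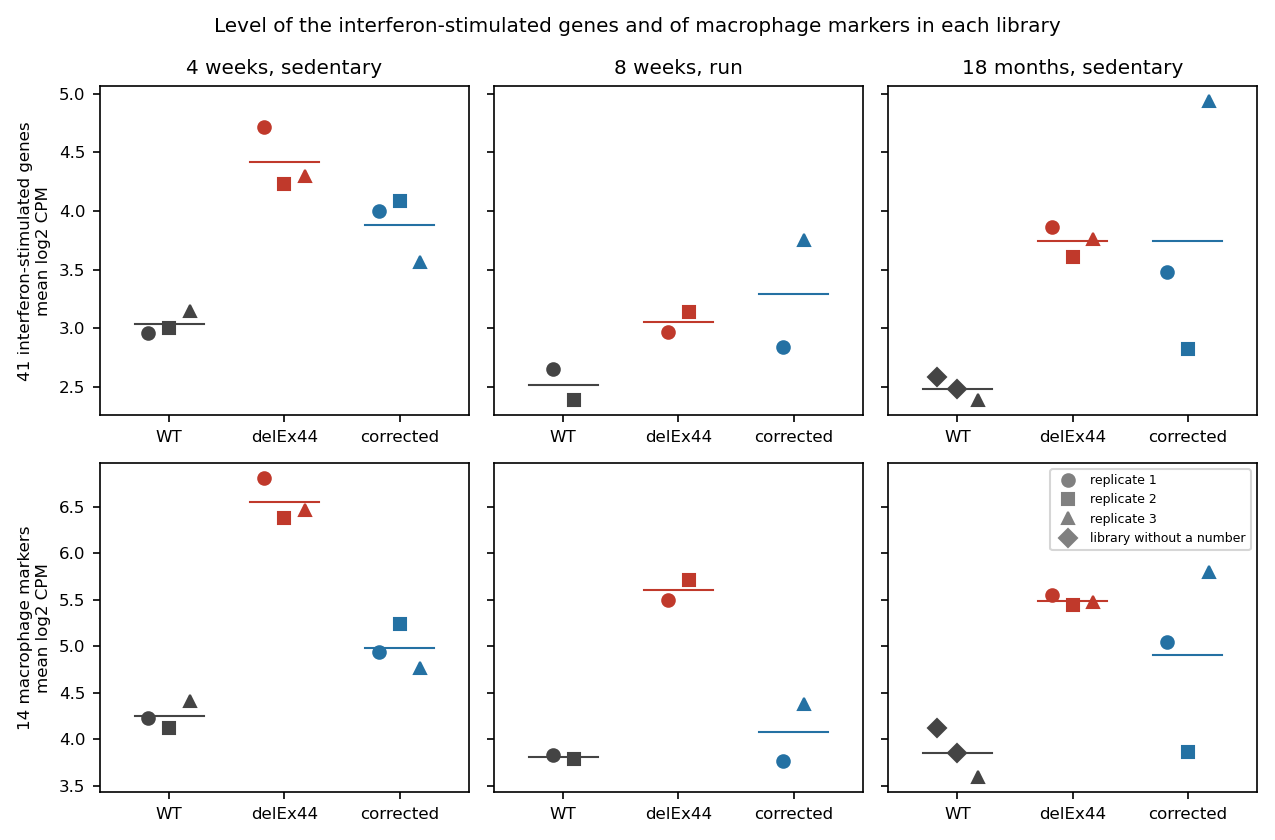
Mean log2 CPM of the 41 interferon-stimulated genes (upper row) and of 14 macrophage markers (lower row) in each library, by genotype and stage; each point is 1 library, its shape the replicate number, and the bar is the group mean. Corrected replicate 3 was at 4.94 for the interferon-stimulated genes at 18 months, above all 3 delEx44 libraries (3.61 to 3.86), and replicate 2 at 2.82 lay close to WT (2.39 to 2.58).

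At 4 weeks nearly the whole set was higher in delEx44 than in WT muscle, and corrected muscle lay between them. In delEx44 39 of 41 genes rose against WT and 0 fell (higher: 25.2% of all genes tested, lower: 25%), with a median log2 fold change of 1.20 and 39 genes whose libraries lay above all WT libraries (29.9%). The genes that did not pass were Gbp4 (log2 fold change 0.50) and Tgtp1 (0.06). In corrected muscle 20 of 41 fell against delEx44 and 0 rose (lower: 24.2% of all genes tested, higher: 22.1%), with a median of −0.45. All 3 corrected libraries lay below all 3 delEx44 libraries in 27 members (30.4% of all genes tested) and above them in 1 (28.3%). Against WT 0 of 41 passed by edgeR (0% of all genes tested), yet all 41 had a positive fold change and the median was 0.79. The median over all genes tested was within 0.05 of 0 in every comparison of genotypes. These comparisons share libraries, so they are given side by side and are not independent of each other.

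The transcription factors carry the signal onward. Irf7 (chromosome 7, 141262706 to 141266481, minus strand), the factor that amplifies the type I response, was at 11.9, 12.02 and 14.6 CPM in WT, at 74.95, 36.8 and 48.6 in delEx44 and at 40.6, 54.8 and 26.5 in corrected. Stat2 (chromosome 10, 128270559 to 128292849, plus strand), part of the complex that binds the response element, was at 18.2, 17.3 and 18.2 CPM in WT, at 43.96, 35.96 and 31.999 in delEx44 and at 27.9, 31.8 and 22.3 in corrected. For both genes every corrected library lay above every WT library, and the corrected range of Irf7 overlapped that of delEx44. All 3 factors rose in delEx44 (Irf7 by a log2 fold change of 2.06 ± 0.35, adjusted p = 0.00073; SE throughout). None of the 3 passed between corrected and delEx44 (Irf7 −0.40 ± 0.33, adjusted p = 0.36; Stat2 −0.45 ± 0.21, adjusted p = 0.098).

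Isg15 (chromosome 4, 156199424 to 156200818, minus strand), a ubiquitin-like protein joined to other proteins, was at 4.19, 4.55 and 6.01 CPM in WT, at 24.1, 13.8 and 18.2 in delEx44 and at 12.4, 11.9 and 6.102 in corrected. It rose in delEx44 (1.92 ± 0.35, adjusted p = 0.00089), and its fold change in corrected against delEx44 was −0.88 ± 0.33 with an adjusted p of 0.051, just above the threshold of 0.05. All corrected libraries lay below all delEx44 libraries, and replicate 3 at 6.10 CPM was close to the highest WT library. In its group of 7 genes, 7 rose in delEx44 and 5 fell in corrected. The ubiquitin ligase Trim30a had the largest difference of the 5, at 14.2, 15.2 and 14.6 CPM in WT, at 55.5, 37.3 and 42.4 in delEx44 and at 25.5, 27.7 and 19.3 in corrected (−0.90 ± 0.21, adjusted p = 0.0040). The other 4 were Dtx3l, Parp9, Parp14 and Herc6, with log2 fold changes between −0.58 and −0.30.

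Antiviral effectors were the largest group, and all 14 rose in delEx44. Mx1 (chromosome 16, 97447035 to 97462907, minus strand), an interferon-induced dynamin-like GTPase that RefSeq lists as a transcribed pseudogene in C57BL/6J, was at 1.01, 1.19 and 1.87 CPM in WT, at 18.1, 8.95 and 11.01 in delEx44 and at 4.13, 4.37 and 3.595 in corrected. It had the largest difference of all members in delEx44 (3.21 ± 0.37, adjusted p = 2.9e-05) and also in corrected against delEx44 (−1.65 ± 0.33, adjusted p = 0.0018). The 3 genotypes did not overlap. Oasl2 (chromosome 5, 114896936 to 114912234, plus strand), an oligoadenylate synthetase-like protein, was at 12.3, 11.6 and 15.6 CPM in WT, at 49.5, 41.7 and 41.6 in delEx44 and at 33.1, 37.6 and 21.9 in corrected. Ifit3 (chromosome 19, 34583531 to 34588731, plus strand), of the family that binds viral RNA ends, was at 8.03, 7.94 and 10.9 CPM in WT, at 44.4, 22.4 and 25.9 in delEx44 and at 20.6, 21.6 and 16.5 in corrected. Bst2 (chromosome 8, 71534255 to 71537456, minus strand), or tetherin, which holds budding virus at the cell surface, was at 19.8, 21.7 and 19.3 CPM in WT, at 54.6, 40.5 and 44.5 in delEx44 and at 36.9, 42.5 and 25.3 in corrected. None of these last 3 passed between corrected and delEx44 (Oasl2 −0.52 ± 0.26, adjusted p = 0.12; Ifit3 −0.66 ± 0.28, adjusted p = 0.071; Bst2 −0.41 ± 0.25, adjusted p = 0.19). In all, 8 of 14 effectors fell in corrected: Mx1, Mx2, Oas1a, Oas2, Oas3, Oasl1, Ifit2 and Eif2ak2. RefSeq lists Mx2, like Mx1, as a transcribed pseudogene, while GENCODE lists Mx1 as protein-coding and Mx2 as a polymorphic pseudogene.

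Among the nucleic acid sensors, 5 of 5 rose in delEx44 and 4 of 5 fell in corrected. Zbp1 (chromosome 2, 173206612 to 173218923, minus strand), a sensor of left-handed nucleic acid that can start cell death, was at 1.98, 2.06 and 3.75 CPM in WT, at 20.5, 12.99 and 16.4 in delEx44 and at 7.83, 11.7 and 5.11 in corrected. Ifih1 (chromosome 2, 62595798 to 62646255, minus strand), the MDA5 sensor of long double-stranded RNA, was at 10.4, 9.31 and 10.4 CPM in WT, at 24.9, 19.8 and 18.3 in delEx44 and at 17.5, 17.5 and 13.3 in corrected. Dhx58, the related helicase LGP2, was at 3.401, 2.599 and 4.11 CPM in WT, at 18.3, 13.3 and 14.7 in delEx44 and at 9.15, 9.56 and 5.41 in corrected. All 3 fell in corrected against delEx44 (Zbp1 −1.02 ± 0.38, adjusted p = 0.047; Ifih1 −0.38 ± 0.14, adjusted p = 0.044; Dhx58 −0.94 ± 0.23, adjusted p = 0.0053). The sensor that did not pass was Ddx60, a helicase, at 2.68, 3.14 and 3.33 CPM in WT, at 12.7, 11.7 and 9.45 in delEx44 and at 11.9, 12.7 and 4.75 in corrected. Corrected replicates 1 and 2 of Ddx60 lay at the delEx44 level, while replicate 3 lay closer to WT.

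Few of the GTPases differed between corrected and delEx44 muscle at this age. Gbp2 (chromosome 3, 142620602 to 142638008, plus strand), a guanylate-binding protein that acts on vacuoles of intracellular pathogens, was at 13.1, 16.2 and 13.7 CPM in WT, at 37.6, 24.8 and 26.3 in delEx44 and at 24.5, 25.6 and 18.2 in corrected. Tgtp1 (chromosome 11, 48985327 to 48994172, minus strand), a T-cell specific GTPase, was at 1.01, 1.62 and 0.982 CPM in WT, at 1.34, 1.27 and 1.12 in delEx44 and at 1.73, 1.72 and 1.62 in corrected. Iigp1 (chromosome 18, 60376027 to 60392634, plus strand), an immunity-related GTPase, was at 18.5, 21.9 and 19.2 CPM in WT, at 45.2, 32.1 and 33.8 in delEx44 and at 31.97, 35.2 and 25.8 in corrected. Gbp2 and Iigp1 rose in delEx44 (1.05 ± 0.28, adjusted p = 0.010; 0.90 ± 0.33, adjusted p = 0.043), and their corrected libraries overlapped those of delEx44. Of the 7 GTPases 5 rose in delEx44 and 1, Irgm1, fell in corrected (−0.43 ± 0.15, adjusted p = 0.032). The remaining 5 genes include Rtp4 and Xaf1, which fell in corrected, and Ifi35, Ifi44 and Ifi27l2a, which did not pass.

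Against WT, the smallest p-values in corrected muscle belonged to Oasl1, Ddx60 and Rtp4. Oasl1, an oligoadenylate synthetase-like protein, was at 1.45, 1.52 and 2.47 CPM in WT, at 12.8, 7.92 and 9.91 in delEx44 and at 6.07, 6.21 and 3.73 in corrected. Rtp4, a transporter chaperone, was at 7.15, 7.04 and 7.29 CPM in WT, at 23.4, 18.6 and 17.4 in delEx44 and at 15.3, 15.6 and 10.2 in corrected. Every corrected library lay above every WT library for all 3, with log2 fold changes of 1.55 ± 0.28, 1.68 ± 0.31 and 0.93 ± 0.19 and adjusted p of 0.12 each. Of the 41 genes 34 had an unadjusted p under 0.05. For such counts no share of all genes is given, here or below. All corrected libraries lay above all WT libraries in 38 genes (8.11% of all genes tested). DESeq2 called 20 higher and limma-voom 0. Counts by these other methods are also given without a share of all genes, here and below. They therefore do not set the members apart from other genes. By single library, corrected replicates 1, 2 and 3 were above the highest WT library in 39, 41 and 38 members (21.4% to 25.6% of all genes tested), and above the highest delEx44 library in 2, 2 and 1 (38.3% to 39.2% of all genes tested).

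The count of 20 falls against delEx44 rested on single libraries: it was 6 without delEx44 replicate 1, 6 without corrected replicate 3 and 12 without corrected replicate 1, and 12 without a filter on low counts. Against WT it was 6 rather than 0 without corrected replicate 3, and 0 without WT replicate 3. Markers of macrophages moved with these genes: 13 of 14 rose in delEx44 (25.2% of all genes tested) and 13 of 14 fell in corrected (24.2%). Their summed levels were 433 to 500.1 CPM in WT, 1858 to 2607 in delEx44 and 666 to 907 in corrected. No macrophage marker was at 0 in any library. Markers of T and natural killer cells summed to 2.24 to 4.19, 14.5 to 26.1 and 4.16 to 6.26 CPM, with 12 of 13 tested markers lower in corrected than in delEx44 (24.2% of all genes tested). Across all 24 libraries 8 of these 16 markers were at 0 counts in at least 1 library. Their part in the result was not tested.

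**Figure D2:**
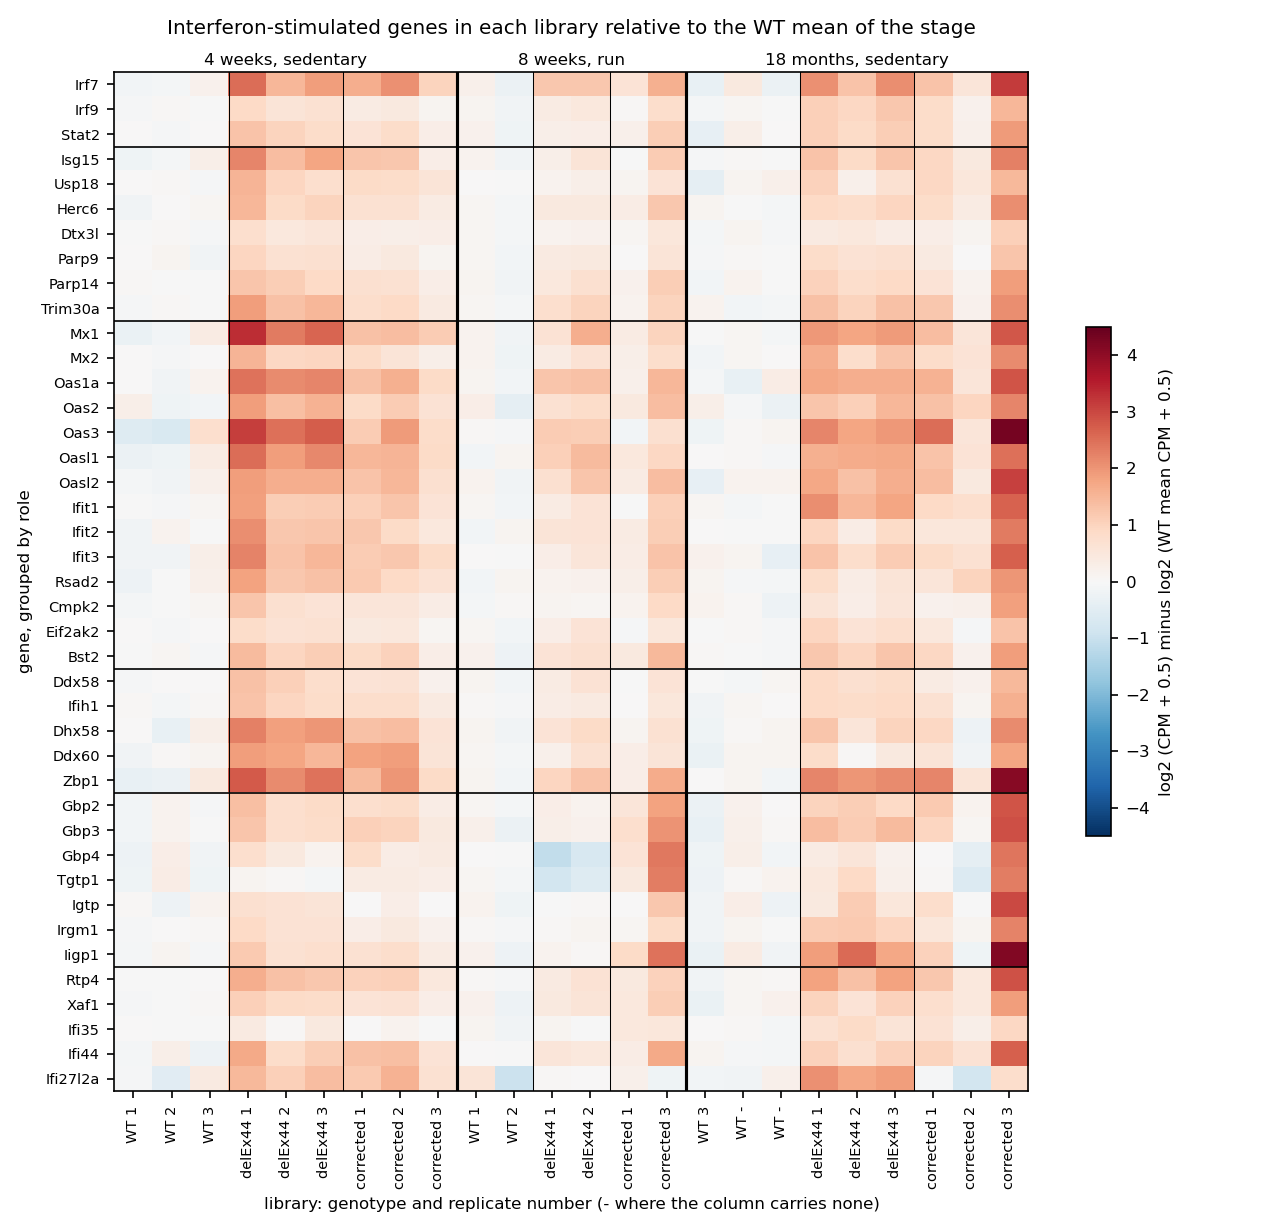
Log2 ratio of each member's CPM to the mean CPM of WT at the same stage, with 0.5 added to both; rows are the 41 genes grouped by role and columns the 24 libraries. Corrected replicate 3 at 18 months is the darkest red column, with Iigp1 at 4.15, and the GTPases are raised in corrected replicate 3 after running.

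After running, 6 of 41 members rose and 0 fell in corrected muscle against delEx44 (higher: 10.8% of all genes tested, lower: 12.4%): the GTPases Tgtp1, Gbp4, Iigp1, Gbp3 and Gbp2, and Ifi35. The median over the 41 was 0.19. Against WT 0 of 41 passed by edgeR (0.02% of all genes tested in either direction), while 29 had an unadjusted p under 0.05, all 41 fold changes were positive and the median was 0.78. DESeq2 called 7 higher against WT and limma-voom 0, again without a share of all genes. In delEx44 5 of 41 rose against WT and 0 fell (higher: 14.9% of all genes tested, lower: 14.2%): Mx1, Oas1a, Oasl1, Oasl2 and Trim30a, with a median over the 41 of 0.49. The 6 and the 5 that rose were near the shares of all genes. Both delEx44 libraries lay above both WT libraries in 33 members (31.1% of all genes tested) and below them in 2 (32.6%). The count of 5 was 3 without WT replicate 1, 1 without WT replicate 2 and 2 without delEx44 replicate 2.

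Tgtp1 was at 1.78 and 1.496 CPM in WT, at 0.711 and 0.914 in delEx44 and at 2.42 and 10.1 in corrected. Gbp4 (chromosome 5, 105115767 to 105139586, minus strand), a guanylate-binding protein with close paralogs whose exons overlap those of Gbp8 and Gbp9 in the annotation, was at 18.6 and 18.3 CPM in WT, at 8.19 and 11.02 in delEx44 and at 28.5 and 96.6 in corrected. Iigp1 was at 15.5 and 11.2 CPM in WT, at 14.9 and 13.7 in delEx44 and at 24.7 and 75.3 in corrected. In all 3 genes both corrected libraries were above both delEx44 and both WT libraries, and replicate 3 was 3.05 to 4.16 times replicate 1. The log2 fold changes against delEx44 were 2.94 ± 0.51, adjusted p = 0.0020 for Tgtp1, 2.704 ± 0.48, adjusted p = 0.0035 for Gbp4 and 1.81 ± 0.41, adjusted p = 0.011 for Iigp1. Against WT they were 1.94 ± 0.48, adjusted p = 0.30, 1.76 ± 0.46, adjusted p = 0.36 and 1.904 ± 0.41, adjusted p = 0.29, and did not pass.

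Gbp2 was at 14.5 and 12.6 CPM in WT, at 16.8 and 15.2 in delEx44 and at 20.1 and 48.8 in corrected, with a log2 fold change against delEx44 of 1.11 ± 0.35, adjusted p = 0.040. Gbp3, its neighbour on chromosome 3, was at 9.25 and 6.38 CPM in WT, at 9.56 and 9.08 in delEx44 and at 13.4 and 33.4 in corrected (1.33 ± 0.37, adjusted p = 0.026). Ifi35, which binds other leucine zipper proteins, was at 20.3 and 16.4 CPM in WT, at 20.02 and 18.3 in delEx44 and at 25.8 and 26.6 in corrected (0.45 ± 0.13, adjusted p = 0.024). Ifi35 was the only one of the 6 with nearly equal corrected libraries. The remaining GTPases, Igtp and Irgm1, did not pass (0.74 ± 0.29, adjusted p = 0.090; 0.47 ± 0.19, adjusted p = 0.090).

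Leaving out a run library leaves 1 in its group, which is assumed to vary like the other groups. Without corrected replicate 3 the log2 fold changes against delEx44 were 1.57 for Tgtp1, 1.57 for Gbp4 and 0.79 for Iigp1. They were 0.33 for Gbp2, 0.52 for Gbp3 and 0.43 for Ifi35. Each of the 6 was smaller than with both corrected libraries. The value of Oas1a was −1.28, and the median over the 41 was −0.24. Without corrected replicate 1, 9 members rose against delEx44 and 10 rose against WT, in place of 6 and 0. Without delEx44 replicate 1 or 2 the count against delEx44 was 3 or 2, and it was 1 with only the compared groups in the fit.

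**Figure D3:**
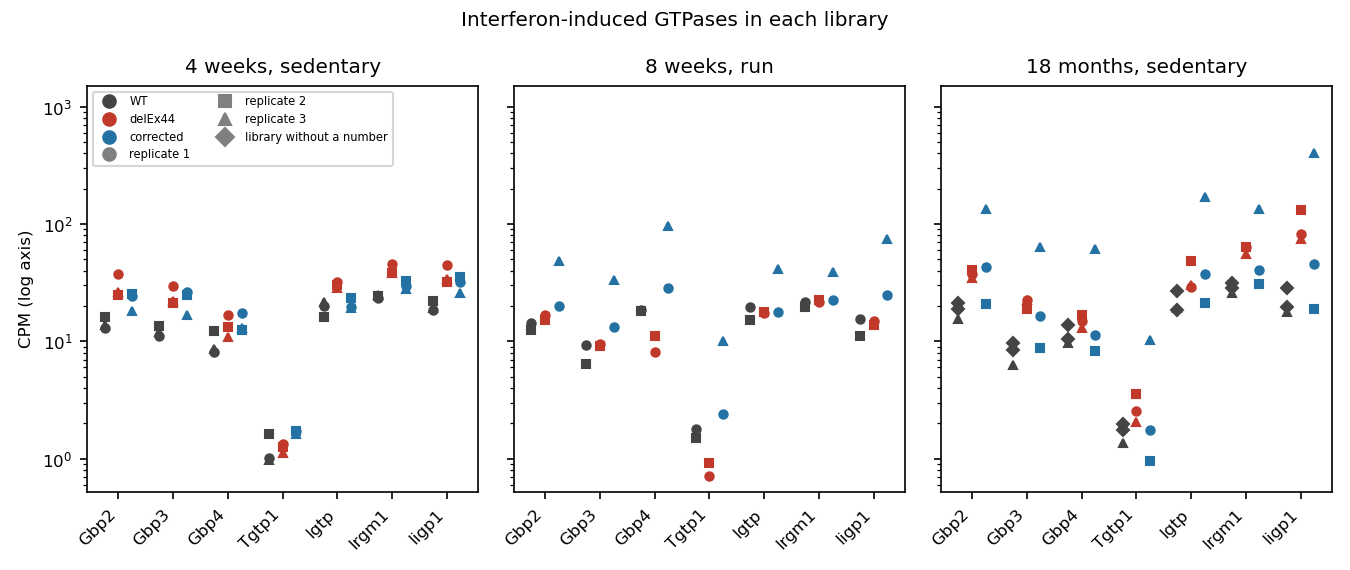
CPM of the 7 GTPases in each library on a log axis, by stage, genotype (colour) and replicate (shape). Corrected replicate 3 is the highest library for all 7 genes after running and again at 18 months, where Iigp1 reached 402 CPM; at 4 weeks the corrected libraries of Gbp2 and Iigp1 lie within the range of the other genotypes.

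In the other role groups only Ifi35 passed between corrected and delEx44 after running. Irf7 was at 7.98 and 5.56 CPM in WT, at 16.4 and 16.2 in delEx44 and at 10.6 and 21.6 in corrected. Stat2 was at 16.6 and 12.6 CPM in WT, at 17.7 and 17.9 in delEx44 and at 17.2 and 32.3 in corrected. Corrected replicate 3 was the highest library for both, and replicate 1 lay between the WT and the delEx44 libraries.

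Isg15 was at 3.35 and 2.63 CPM in WT, at 3.72 and 4.68 in delEx44 and at 2.95 and 7.29 in corrected. Mx1 was at 0.919 and 0.649 CPM in WT, at 1.502 and 3.46 in delEx44 and at 1.17 and 2.09 in corrected. The 2 delEx44 libraries of Mx1 differed by more than the 2 corrected ones, and the fold change of corrected against delEx44 was −0.59 ± 0.46, adjusted p = 0.38.

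Oasl2 was at 6.9998 and 5.53 CPM in WT, at 10.7 and 15.4 in delEx44 and at 8.32 and 17.03 in corrected. Ifit3 was at 5.31 and 5.17 CPM in WT, at 6.56 and 7.92 in delEx44 and at 6.81 and 13.5 in corrected. Bst2 was at 14.2 and 10.6 CPM in WT, at 19.3 and 20.9 in delEx44 and at 16.97 and 34.8 in corrected. In all 3 the highest value was corrected replicate 3, while replicate 1 was below both delEx44 libraries for Oasl2 and Bst2.

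Among the sensors, Zbp1 was at 1.36 and 1.07 CPM in WT, at 2.898 and 3.71 in delEx44 and at 1.63 and 4.97 in corrected. Ifih1 was at 8.42 and 7.73 CPM in WT, at 10.2 and 10.99 in delEx44 and at 8.29 and 11.8 in corrected. Neither passed between corrected and delEx44 (0.01 ± 0.51, adjusted p = 0.99; −0.08 ± 0.18, adjusted p = 0.80). Xaf1, an apoptosis-related gene with the smallest p against WT, was at 4.98 and 3.67 CPM in WT, at 5.98 and 6.73 in delEx44 and at 6.14 and 9.97 in corrected (0.90 ± 0.21, adjusted p = 0.29).

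By library, corrected replicate 3 lay above both delEx44 libraries in 32 of 41 members, or 78.0%, against 39.2% of all genes tested. Corrected replicate 1 did so in 9 of 41, or 22.0%, against 40.3% of all genes tested. For the GTPases the counts were 7 of 7 and 5 of 7. Both corrected libraries were above both WT libraries in 29 members (19% of all genes tested) and above both delEx44 libraries in 8 (30.7%), and below both delEx44 libraries in 2 (31%). Against delEx44 13 of 14 macrophage markers fell (12.4% of all genes tested), with summed levels of 1224 and 1252 CPM in delEx44 against 367 and 500 in corrected replicates 1 and 3 and 354 and 356 in WT. T and natural killer cell markers summed to 13.7 and 10.2 CPM in delEx44, 4.73 and 4.496 in corrected and 5.52 and 2.82 in WT. Both marker sums were lower in corrected than in delEx44 libraries. The part of these cells in the levels of the members was not tested.

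**Figure D4:**
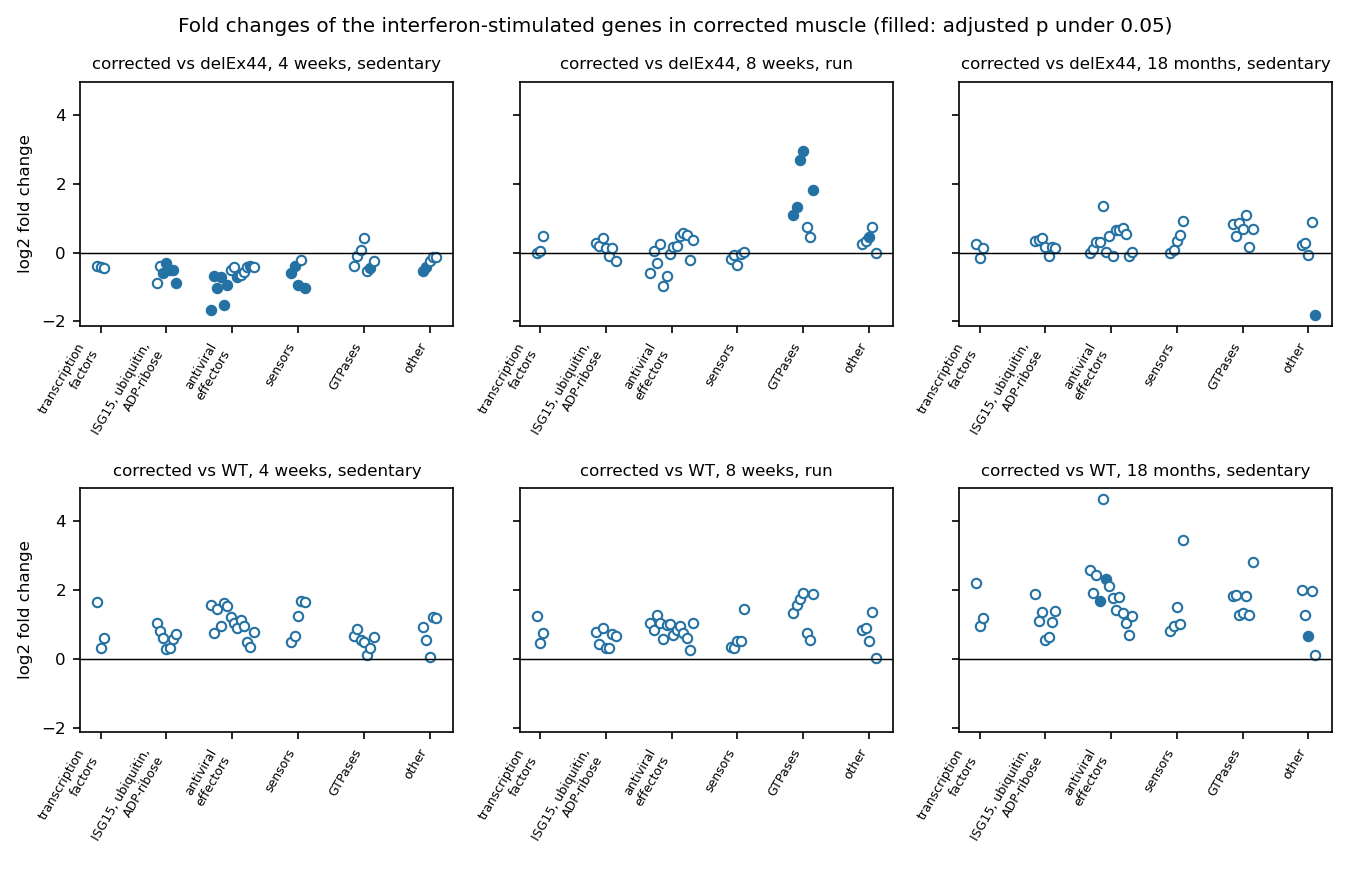
Log2 fold change of each of the 41 genes in corrected muscle against delEx44 (upper row) and WT (lower row) at each stage, by role; filled points had an adjusted p under 0.05 by edgeR. The filled points are 20 below 0 at 4 weeks, 6 above 0 after running and 1 below 0 at 18 months against delEx44, and 0, 0 and 3 above 0 against WT.

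At 18 months the corrected libraries spread widely, from near WT to above delEx44. The mean log2 CPM of the 41 genes was 3.48, 2.82 and 4.94 in corrected replicates 1, 2 and 3, against 3.86, 3.61 and 3.76 in delEx44 and 2.39 to 2.58 in WT. Replicate 3 was the highest corrected library for 41 of 41 members and replicate 2 the lowest for 39. The highest corrected library was a median of 3.796 times the lowest, against 1.23 over all genes in the same libraries and 1.27 and 1.31 for the members in delEx44 and WT. Replicate 3 was above all 3 delEx44 libraries in 40 of 41 members, or 97.6%, against 39.1% of all genes tested. Replicate 1 was above them in 2 (37.5% of all genes tested) and replicate 2 in 1 (38.9%). Against WT, replicate 2 was above the highest library in 27 of 41 members, or 65.9%, against 27.3% of all genes tested.

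With all libraries, 1 of 41 members fell against delEx44 and 0 rose (lower: 21.4% of all genes tested, higher: 19.6%), and 3 rose against WT and 0 fell (higher: 2.34%, lower: 2.43%). In delEx44 13 of 41 rose against WT, near the share of all genes, and 0 fell (higher: 28.8%, lower: 23.8%). The median was 1.11, and 39 genes had all delEx44 libraries above all WT libraries (36.3% of all genes tested). The spread in this fit was estimated over all 9 libraries, the corrected ones included. With only the compared groups in the fit 39 members passed, for which no share of all genes is given. The median of corrected against delEx44 was 0.31, and against WT 1.40, with all 41 fold changes positive against WT.

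The gene that fell was Ifi27l2a (chromosome 12, 103442167 to 103443680, minus strand), a small interferon-inducible membrane protein, at 13.6, 17.8 and 13.9 CPM in WT, at 64.9, 51.02 and 56.8 in delEx44 and at 14.6, 8.36 and 26.5 in corrected. All 3 corrected libraries were below all 3 delEx44 libraries, which held for this member alone (28.4% of all genes tested), and the range of corrected took in that of WT (−1.80 ± 0.37, adjusted p = 0.0067). The next smallest p-values were those of Rsad2, or viperin, at 9.62, 9.397 and 11.1 CPM in WT, at 17.99, 12.9 and 15.4 in delEx44 and at 14.8, 20.4 and 41.3 in corrected (0.73 ± 0.35, adjusted p = 0.13), and Ifi44, at 1.99, 1.96 and 2.37 CPM in WT, at 4.79, 3.77 and 4.85 in delEx44 and at 4.67, 3.56 and 16.4 in corrected (0.88 ± 0.52, adjusted p = 0.22). Neither passed, and their ranges overlapped.

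The genes that rose against WT were Oas2, Oasl1 and Ifi35. Oas2, an oligoadenylate synthetase, was at 5.61, 4.81 and 7.06 CPM in WT, at 14.7, 12.7 and 17.4 in delEx44 and at 15.3, 11.96 and 28.6 in corrected (1.69 ± 0.33, adjusted p = 0.035). Oasl1 was at 0.651, 0.564 and 0.616 CPM in WT, at 2.87, 3.07 and 3.09 in delEx44 and at 2.201, 1.2001 and 5.71 in corrected (2.32 ± 0.52, adjusted p = 0.044). Ifi35 was at 9.84, 8.73 and 9.61 CPM in WT, at 15.6, 17.7 and 14.2 in delEx44 and at 15.2, 11.4 and 18.4 in corrected (0.68 ± 0.16, adjusted p = 0.044). In all 3 every corrected library was above every WT library, which held for 27 of 41 members (12% of all genes tested). The count of 3 that passed was unstable: limma-voom called 0 and DESeq2 27. It was 0 without corrected replicate 1 or any WT library or with only the compared groups in the fit. It was 31 without corrected replicate 2 and 7 without corrected replicate 3. No share of all genes is given for these fits.

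Irf7 was at 5.75, 3.32 and 3.17 CPM in WT, at 18.7, 10.5 and 18.95 in delEx44 and at 10.7, 6.12 and 40.5 in corrected. Stat2 was at 15.9, 13.3 and 9.99 CPM in WT, at 28.3, 24.04 and 29.1 in delEx44 and at 23.5, 15.3 and 50.9 in corrected. Isg15 was at 0.905, 0.8301 and 0.805 CPM in WT, at 2.81, 1.92 and 2.73 in delEx44 and at 2.09, 1.32 and 5.99 in corrected. In each, corrected replicate 3 was the highest of the 9 libraries and replicate 2 was below all 3 delEx44 libraries.

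Mx1 was at 0.651, 0.498 and 0.568 CPM in WT, at 3.65, 3.197 and 3.59 in delEx44 and at 2.28, 1.08 and 6.99 in corrected. Oasl2 was at 7.02, 7.01 and 4.78 CPM in WT, at 22.01, 16.3 and 20.7 in delEx44 and at 17.1, 8.72 and 56.3 in corrected. Ifit3 was at 6.404, 4.42 and 6.72 CPM in WT, at 14.97, 10.5 and 13.7 in delEx44 and at 10.9, 9.64 and 40.7 in corrected. None of the 3 passed between corrected and delEx44 (log2 fold changes −0.0021 ± 0.54; 0.48 ± 0.61; 0.65 ± 0.54). Bst2 was at 4.96, 4.81 and 5.11 CPM in WT, at 12.1, 10.2 and 12.4 in delEx44 and at 10.04, 5.72 and 19.4 in corrected. Oas3, an oligoadenylate synthetase, had the widest spread of all members in corrected, at 3.71, 0.56004 and 13.9 CPM, a ratio of 24.9 between the highest and the lowest library.

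Zbp1 was at 1.16, 0.896 and 1.04 CPM in WT, at 6.497, 5.56 and 6.18 in delEx44 and at 6.49, 1.8001 and 25.8 in corrected. Ifih1 was at 17.3, 16.4 and 14.5 CPM in WT, at 30.2, 28.9 and 30.1 in delEx44 and at 25.99, 17.8 and 50.02 in corrected. Corrected replicate 1 of Zbp1 was level with delEx44, and replicate 2 was near WT.

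The spread was wide in the GTPases. Gbp2 was at 21.4, 18.8 and 15.5 CPM in WT, at 37.5, 40.4 and 34.6 in delEx44 and at 42.9, 20.8 and 135 in corrected. Tgtp1 was at 1.77, 1.99 and 1.37 CPM in WT, at 2.54, 3.58 and 2.06 in delEx44 and at 1.78, 0.9601 and 10.3 in corrected. Iigp1 was at 28.8, 19.7 and 17.9 CPM in WT, at 82.9, 132 and 74.2 in delEx44 and at 45.99, 19.1 and 402 in corrected. Their highest corrected library was a median of 7.37 times the lowest, against 3.54 times for the other 34 members. In replicate 2, 0 of 7 GTPases were above the highest WT library (27.3% of all genes tested) and 7 of 7 were below the lowest delEx44 library (45.6%), while in replicate 3 all 7 were above the highest delEx44 library (39.1%).

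Without corrected replicate 3, 16 of 41 members fell against delEx44 in place of 1, with a median of −0.51. They were Irf9, Parp9, Parp14, Mx1, Oasl1, Ifit1, Eif2ak2, Ddx58, Ifih1, Gbp3, Gbp4, Tgtp1, Irgm1, Iigp1, Rtp4 and Ifi27l2a, and examples are Ifit1 (−0.97, adjusted p = 0.0012), Iigp1 (−1.54, adjusted p = 0.039) and Mx1 (−1.02, adjusted p = 0.013). Without replicate 1 or 2 the count was 2, of which 1 was higher. No share of all genes is given for fits that leave out a library. These counts alone therefore do not set the members apart from other genes. For delEx44 against WT the count of 13 was 6 without WT replicate 3 or delEx44 replicate 1 and 7 without either other WT library, 26 by DESeq2 and 39 with only the compared groups in the fit.

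Dmd was at 204.8, 304.0 and 195.1 CPM in corrected replicates 1, 2 and 3 at this age. Macrophage markers summed to 903, 406 and 1228 CPM in the same libraries, against 1122 to 1196 in delEx44 and 349 to 465 in WT. Markers of T and natural killer cells summed to 10.7, 5.6004 and 13.5 CPM, against 15.2 to 25.1 and 3.03 to 7.78. The macrophage sum of replicate 3 was thus above all 3 delEx44 libraries and its T and natural killer cell sum below all 3. The part of these cells in the spread of the interferon-stimulated genes was not tested.

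From the 4-week to the run group, the genes were lower in delEx44 muscle, where 37 of 41 fell and 0 rose (lower: 19.3% of all genes tested, higher: 16.4%; median −1.40). Ifit3 (−2.09 ± 0.34, adjusted p = 0.00098), Isg15 (−2.15 ± 0.41, adjusted p = 0.0023) and Zbp1 (−2.33 ± 0.47, adjusted p = 0.0032) were among those that fell. In WT 8 of 41 fell, near the share of all genes, and 0 rose (lower: 14.2%, higher: 13.4%). Among the 8 were Oasl2 (−1.08 ± 0.32, adjusted p = 0.031) and Eif2ak2 (−0.83 ± 0.17, adjusted p = 0.0037). In corrected muscle 18 fell and 2 rose (lower: 13.5%, higher: 12.3%). The pair that rose was Gbp4 (2.13 ± 0.41, adjusted p = 0.0044) and Tgtp1 (1.89 ± 0.42, adjusted p = 0.0065), and Irf7 (−1.33 ± 0.39, adjusted p = 0.031) and Oasl2 (−1.28 ± 0.31, adjusted p = 0.012) were among those that fell. Without corrected replicate 1 of the run group 5 rose and 1 fell, and without replicate 3 of that group 1 rose and 31 fell. Without replicate 1 or 2 of the 4-week corrected group 2 rose and 8 fell. In WT the count was 0 without run replicate 2, 2 without 4-week replicate 2 and 3 without each of the others in turn. Macrophage markers fell in 13 of 14 cases in delEx44 (19.3% of all genes tested), 7 of 14 in corrected (13.5%) and 1 of 14 in WT (14.2%). Neutrophil markers were higher in all 6 run libraries than in the 4-week libraries other than WT replicate 3.

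Whether a genotype difference changed between stages was tested directly. Between run and 4 weeks, 0 of 41 members passed for corrected against delEx44 by edgeR (1.42% of all genes tested in either direction), though all 41 interaction values were positive, 17 had an unadjusted p under 0.05 and DESeq2 called 9 higher. The largest were Gbp4 (2.64 ± 0.60, adjusted p = 0.061), Tgtp1 (2.51 ± 0.65, adjusted p = 0.074) and Iigp1 (2.06 ± 0.52, adjusted p = 0.079). Without corrected replicate 1 of the run group 7 passed, and without delEx44 replicate 2 of the 4-week group 1. For corrected against WT 0 passed (0% of all genes tested), with 4 at an unadjusted p under 0.05 and 0 by DESeq2, and for delEx44 against WT 0 passed (0.879%), with 14 and 3. Between 18 months and 4 weeks, 1 member, Ifi27l2a, passed for corrected against delEx44 (−1.63 ± 0.48, adjusted p = 0.036; lower: 8.12% of all genes tested, higher: 7.75%), and it did not pass when most single libraries were left out. Without corrected replicate 2 at 18 months 15 members were higher and 1 lower. For corrected against WT 0 passed (0.495%), with 3 at an unadjusted p under 0.05 and 0 by DESeq2, and for delEx44 against WT 0 passed (10.9%), with 2 and 0.

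The interferons themselves were hardly detected. None of 21 interferon genes passed the filter on low counts, and a library held 0 to 9 counts of all of them together. Ifng, the gene of interferon gamma, had 52 counts over the 24 libraries and at most 9 in one, delEx44 replicate 1 at 4 weeks. It was at 0 in 6 libraries, among them corrected replicate 3 at 18 months, where 0 counts allow a level of up to 0.107 CPM (3 counts). Ifnb1, a type I interferon gene, had 5 counts in all. At 4 weeks Ifng had 9, 4 and 4 counts in delEx44, against 0, 1 and 2 in WT and 2, 1 and 0 in corrected, so every delEx44 library was above every other library of that age. After running the WT libraries had 1 and 4 counts, the delEx44 libraries 0 and 2, and the corrected ones 2 and 4, and the groups overlapped. At 18 months the WT libraries had 3, 0 and 0 counts, the delEx44 libraries 4, 4 and 2, and the corrected ones 2, 1 and 0. These are raw counts, and no difference in them was tested. Over the 6 libraries at 0, a count of 0 allows 0.079 to 0.142 CPM.

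Of the 6 receptor chains, Ifnar1 was at 27.1, 27.8 and 28.4 CPM in WT, at 47.5, 44.5 and 41.2 in delEx44 and at 33.5, 29.9 and 29.1 in corrected at 4 weeks. In the run groups the WT libraries held 23.5 and 21.5 CPM, those of delEx44 30.1 and 37.7, and those of corrected 22.6 and 25.4. At 18 months its level was 27.7, 24.5 and 23.8, 40.8, 35.7 and 40.2, and 29.7, 26.7 and 34.6 in the same order. It rose in delEx44 against WT at all 3 stages (log2 fold changes 0.68, 0.59 and 0.62) and fell in corrected against delEx44 at all 3 (−0.52 ± 0.09, adjusted p = 0.00041; −0.50 ± 0.11, adjusted p = 0.0069; −0.36 ± 0.10, adjusted p = 0.018). Corrected against delEx44, 3 of 6 receptor chains fell at 4 weeks, 2 of 6 after running and 3 of 5 tested at 18 months, and 1 rose at 18 months. For these and the lists that follow, the shares of all genes tested were 24.2%, 12.4% and 21.4% lower and 22.1%, 10.8% and 19.6% higher at 4 weeks, after running and at 18 months. Ifngr1, a chain of the interferon gamma receptor, did not pass between corrected and delEx44 at any stage (−0.16, −0.32 and −0.10). At 18 months it was at 73.9, 72.5 and 79.4 CPM in WT, at 105, 108 and 103 in delEx44 and at 99.4, 98.8 and 96.5 in corrected, and it rose in corrected against WT (0.38 ± 0.06, adjusted p = 0.012).

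In the signalling list of 14, Irf1, a factor induced by interferon gamma, had a 4-week level of 13.3, 14.6 and 13.8 CPM in WT, of 28.3, 24.3 and 19.01 in delEx44 and of 18.9, 14.6 and 16.6 in corrected. Its level in the run groups was 19.3 and 17.2, 18.997 and 20.1, and 21.8 and 29.3, and at 18 months 17.9, 13.6 and 14.4, 36.4, 27.3 and 30.8, and 16.6, 14.2 and 38.4, in the same order of genotypes. At 4 weeks it fell in corrected against delEx44 (−0.52 ± 0.14, adjusted p = 0.011). Later it did not pass, and corrected replicate 3 had the highest value of its stage. Against delEx44, 8 of 14 signalling genes fell and 3 rose at 4 weeks, 4 and 1 after running and 5 and 3 at 18 months, with the kinase Jak2 among those that rose each time (0.70, 0.43 and 0.57). The 3 that rose at 4 weeks and at 18 months are near the share of all genes.

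Of 16 genes of upstream sensing, 13 fell and 1 rose in corrected against delEx44 at 4 weeks, 10 fell and 1 rose after running, and 3 fell, near the share of all genes, and 0 rose at 18 months. The endosomal RNA sensors Tlr8 (−2.09 ± 0.32, adjusted p = 0.0011) and Tlr7 (−1.86 ± 0.29, adjusted p = 0.0013) fell after running. Tmem173, the STING adaptor for cytosolic DNA, fell at 18 months (−1.29 ± 0.24, adjusted p = 0.0029). Of 49 other interferon-stimulated genes tested, 28 fell and 0 rose at 4 weeks, 4 fell and 4 rose after running. At 18 months 2 fell and 0 rose. The counts after running and at 18 months were below the shares of all genes. Gbp7, a further guanylate-binding protein, was among those that rose after running (1.48 ± 0.26, adjusted p = 0.0027), and Ifi30, a lysosomal thiol reductase of antigen processing, among those that fell (−1.09 ± 0.15, adjusted p = 0.00053). Against WT 0 of these signalling, sensing and other genes passed at 4 weeks (0% of all genes tested) or after running (0.02%). At 18 months 1 signalling, 2 sensing and 6 other genes rose (2.34% of all genes tested), including Trim25 (0.60 ± 0.11, adjusted p = 0.026) and Myd88 (0.83 ± 0.19, adjusted p = 0.043).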

How the data were processed

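The authors deposited 2 tables of unnormalised gene counts, for 15 libraries (4 weeks and run) and 9 libraries (18 months). The submitters' processing notes list, with no roles, edgeR, HTSeq, SAMtools 1.9, STAR 2.7.2b, Bowtie2 2.3.4.3 and Trim Galore, and the build mm10. Neither annotation nor strand setting is stated by the labels, so overlapping genes such as Irf7 and Phrf1, or Parp9 and Dtx3l, cannot be separated. The 5 records that name no gene (27.4% to 34.2% of a library in the first table, 42.2% to 48.3% at 18 months) were left out. The names of 2 WT columns at 18 months give a group but no sample, and replicate numbers at 4 weeks and of the run delEx44 libraries are only an order.

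Counts were analysed with edgeR 4.0.16 (R 4.3.3): filterByExpr, TMM, a robust quasi-likelihood fit with 1 mean per group, and Benjamini-Hochberg adjustment over all genes tested, with 0.05 as the threshold. The 15 libraries were 1 fit (15013 genes), the 9 another (14337), and the 18 sedentary ones one more (14937) for changes between ages. The 9 genotype comparisons, 3 running comparisons and 6 changes between stages make 18. The scripts were tested on simulated data. List levels are means of log2 CPM with a prior count of 2. Alternatives were DESeq2 1.42.0, limma-voom 3.58.1, RLE size factors, no filter, fewer groups in the fit, a replicate block and leaving out each library. Gene positions are from GENCODE vM21 (GRCm38).

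The members and all gene lists were chosen with earlier results of these data known. Values in every library are given for 12 role examples and for the 3 members with the smallest p in each comparison of corrected muscle; of the pathway lists, genes with the smallest p among those that passed and a few fixed genes are named. The values of 1 gene under this rule are not reported here.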

Additional observations from a re-analysis of the deposited data

Results flagged for a closer look

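Ifi27l2a drew attention because its difference between corrected and delEx44 muscle changed between ages in the test of that change itself, by −1.63 ± 0.48 on the log2 scale (SE, edgeR, adjusted p = 0.036). At 4 weeks it was at 86.7, 65.3 and 82.2 CPM in delEx44 and at 69.9, 92.9 and 49.5 in corrected, and the groups overlapped. At 18 months it was at 64.9, 51.02 and 56.8 and at 14.6, 8.36 and 26.5, and they did not. The change passed under 7 of 16 alternatives. No other of the 41 members passed, while 8.12% of all genes tested were lower and 7.75% higher. The call therefore does not set the members apart from other genes. Age, vector dose, vector type and count table cannot be told apart in this change.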

How the results depend on the processing

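Counts are of members called among 41. No share of all genes is given beside the counts of the alternative fits, so they do not set the members apart from other genes. In genotype comparisons, counts under DESeq2 were 20 for corrected against WT at 4 weeks and 7 after running, 14 for delEx44 against WT after running, and at 18 months 2 for corrected against delEx44, 27 for corrected against WT and 26 for delEx44 against WT. Without a filter on low counts the count for corrected against delEx44 at 4 weeks was 12. With only the compared groups in the fit it was 1 for corrected against delEx44 and 12 (11 higher, 1 lower) for delEx44 against WT after running, and 0 for corrected and 39 for delEx44 against WT at 18 months. With limma-voom it was 3 for delEx44 against WT after running and 0 for corrected against WT at 18 months. From 4 weeks to running in WT, DESeq2 gave 18, no filter 4 and limma-voom 3. For changes in genotype differences, DESeq2 gave 9 (corrected against delEx44) and 3 (delEx44 against WT) with running. Between 18 months and 4 weeks, for corrected against delEx44, DESeq2 gave 4, with 3 higher and 1 lower, and RLE size factors gave 2. The cause was not tested.

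Leaving out each library in turn gave, at 4 weeks, 6 to 21 calls for corrected against delEx44, 0 to 6 for corrected against WT and 34 to 37 for delEx44 against WT. After running it gave 2 to 9, 0 to 10 and 1 to 5, and at 18 months 1 to 16, 0 to 31 and 6 to 12. For run against 4 weeks it gave 0 to 3 in WT, 29 to 36 in delEx44 and 6 to 32 in corrected, where the 6 (without run replicate 1) had 5 higher. For corrected against delEx44 the change with running gave 0 to 7, and that between ages 0 to 16, where the 1 without corrected replicate 1 at 18 months and 15 of the 16 without corrected replicate 2 were higher. For corrected against WT the change between ages gave 0 to 2. Where an arm is left with 1 library after running, that library is assumed to vary like the other groups.

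With the replicate number as a block, corrected against delEx44 at 18 months had 1 call, as without it. Same-numbered libraries had correlations of −0.031, 0.025 and −0.049 in their deviations from the group means, so the numbers give no sign of pairing. No other paired analysis was possible because the WT columns at 18 months are not all numbered, the run WT and corrected groups share only number 1, and the numbers of the 4-week libraries and the run delEx44 libraries are only an order. Of all alternative counts 145 stayed within 1.5 times the main count in the same direction, 62 moved further and 4 changed direction.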

Other observations

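Cxcl9, a chemokine gene induced by interferon gamma that was chosen after its values were seen, was at 7.35, 2.92 and 3.46 CPM in WT, at 11.7, 19.8 and 10.7 in delEx44 and at 6.57, 2.68 and 32.002 in corrected at 18 months. Corrected replicate 3 was the highest of the 9 libraries, as it was for 40 of the 41 interferon-stimulated genes. After running Cxcl9 was at 4.75 and 1.55 CPM in WT, at 4.08 and 3.02 in delEx44 and at 5.43 and 6.06 in corrected. Both corrected libraries were above the others. At 4 weeks it was at 4.63, 4.44 and 3.54 CPM in WT, at 19.5, 10.99 and 15.8 in delEx44 and at 7.42, 6.59 and 6.33 in corrected, with all delEx44 libraries above all others.

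Oas3 in WT at 4 weeks was at 0.724, 0.614 and 2.59 CPM, a ratio of 4.22 between the highest and the lowest library, where the median ratio of the members in that group was 1.22. The high library was replicate 3, the one with neutrophil markers. For the 41 members together this library was the highest WT one in 25.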
